A study of Homo sapiens with 6 samples.

Results

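The collagen family genes were compared between DUS1L knockout and wild-type cells of A375, a long-established BRAF-mutant melanoma cell line of human origin. The family was taken as the protein-coding genes whose GENCODE symbol has the form COL, a number, A and a number, which gave 44 of the 63086 genes in the table. Of these, 11 encode fibrillar chains, 6 encode the type IV chains of basement membranes, and 27 belong to the remaining subfamilies. The data are 3 RNA-seq libraries of DUS1L knockout cells and 3 of wild-type cells, which the submitters describe as biological replicates. DUS1L, which encodes a tRNA dihydrouridine synthase, was disrupted with CRISPR/Cas9 and edited cells were then selected as clones. Wild-type cells were grown alongside and were never targeted. The number of clones was not given in the sources used here, so what the edit did and what clonal selection brought with it cannot be told apart. Both groups share the same line, medium and RNA protocol, and no animal or host tissue was involved.

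Collagens are secreted or membrane-bound proteins in which 3 chains with a repeated glycine-led motif wind into a triple helix. Fibrillar collagens form the load-bearing fibres of connective tissue, type IV chains form the sheet-like network of basement membranes, and other types decorate fibrils, form beaded filaments or anchor cells to the matrix. Melanocytes sit on a basement membrane, and melanoma cells are known to make part of their own matrix. The comparison asks which of these genes differ in RNA level between the genotypes.

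The libraries held between 17121307 and 18861493 counts after rounding, and collagen genes took 0.183% to 0.191% of the counts in knockout libraries and 0.226% to 0.246% in wild-type libraries. DUS1L itself was at 55.4, 54.7 and 53.1 CPM (the count scaled to a fixed total with TMM-adjusted library sizes) in knockout libraries, against 79.95, 75.7 and 77.0 CPM in wild-type libraries (a log2 fold change of -0.51 with an SE of 0.06; edgeR adjusted p = 1.70e-06). Counts per gene cannot show the edit itself. Wild-type replicate 1 lay apart from the other wild-type libraries on the second principal component of all tested genes, at -22.4 against 9.30 and 13.1, while knockout libraries lay between -9.71 and 6.51. Of 12 melanocyte lineage markers, 8 had enough counts to be tested. SOX10 and MITF were present. The pigmentation gene TYR had no counts, and DCT, PMEL, MLANA and TYRP1 stayed under 1 CPM in every library. Of the 8, 5 fell (62.5%, beside 20.7% of all genes tested), and the summed level of the list was 570.4 to 633.9 CPM in knockout libraries and 775.1 to 798.0 CPM in wild-type libraries. Most of that sum was SOX10, at a mean of 480.5 CPM in knockout and 603.8 CPM in wild-type cells. MITF was not called (log2 fold change 0.07). Among 10 fibroblast markers, PI16 had no counts and THY1, DPT, MFAP5 and CD248 stayed under 1 CPM in every library. PDGFRB was the 1 of 5 tested that fell (20%, beside 20.7% of all genes tested). The 8 keratinocyte markers, of which 3 had no counts and none was called, summed to 58.6 to 68.4 CPM in knockout and 59.0 to 67.3 CPM in wild-type libraries. The 8 endothelial markers summed to 3.83 to 5.84 CPM in knockout and 5.88 to 7.39 CPM in wild-type libraries. TIE1 was the 1 of 4 tested endothelial markers that fell (25%, beside 20.7% of all genes tested). The 8 leukocyte markers, of which 3 had no counts, summed to 114.8 to 131.9 CPM in knockout and 177.8 to 193.1 CPM in wild-type libraries. Of the 3 tested, HLA-DRA fell and ITGAM rose (33.3% each, beside 20.7% lower and 20.5% higher of all genes tested). Most of the leukocyte sum was HLA-DRA, at means of 114.3 CPM in knockout and 181.4 CPM in wild-type cells. Most of the keratinocyte sum was KRT10, at 52.7 and 54.1 CPM. The part of cell makeup in the collagen results was not tested.

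Start-site sequences of 4 stretches are shown because the genes beside them belong to chain sets that fell together or, for COL5A3, passed the 1.5-fold test upward. They come from RefSeq (GRCh38.p14), which gave entries for 32 of the 44 genes. The first is the stretch between the RefSeq start sites of COL4A1 and COL4A2, which run in opposite directions on chromosome 13 (chr13:110307158-110307283, plus strand, 126 bases). GENCODE places the outermost start of COL4A2 further upstream, at 110305812, so in that annotation the stretch lies within the COL4A2 gene body. The others are the 250 bases before the start sites of the type VI chain genes COL6A2 (chr21:46097862-46098111, plus strand) and COL6A3 (chr2:237414165-237414414, minus strand) and of the fibrillar gene COL5A3 (chr19:10010505-10010754, minus strand). GENCODE places the outermost start of COL6A3 at 237414328. In that annotation the part of the COL6A3 window from 237414165 to that base lies within the gene body. Capitals mark a CCAAT box (CCAAT), a GC box (GGGCGG) or a TATA box (TATAAA) on either strand.
COL4A1-COL4A2: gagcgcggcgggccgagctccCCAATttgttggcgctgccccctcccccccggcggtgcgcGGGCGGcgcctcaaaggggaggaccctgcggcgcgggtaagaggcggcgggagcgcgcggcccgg
COL6A2: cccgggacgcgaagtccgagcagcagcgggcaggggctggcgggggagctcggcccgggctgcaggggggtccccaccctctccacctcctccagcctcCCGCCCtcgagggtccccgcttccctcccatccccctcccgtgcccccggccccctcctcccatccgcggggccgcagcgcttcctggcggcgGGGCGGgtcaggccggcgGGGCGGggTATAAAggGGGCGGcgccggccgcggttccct
COL6A3: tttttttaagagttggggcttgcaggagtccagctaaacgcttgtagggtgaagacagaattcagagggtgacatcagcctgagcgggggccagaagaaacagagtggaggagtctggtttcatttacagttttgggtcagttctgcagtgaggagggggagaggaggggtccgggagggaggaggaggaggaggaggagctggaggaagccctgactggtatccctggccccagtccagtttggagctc
COL5A3: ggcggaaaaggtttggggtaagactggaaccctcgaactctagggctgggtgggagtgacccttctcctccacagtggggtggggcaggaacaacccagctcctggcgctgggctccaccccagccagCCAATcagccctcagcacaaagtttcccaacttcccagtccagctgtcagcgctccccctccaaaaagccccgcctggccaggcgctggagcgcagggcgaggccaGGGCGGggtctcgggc
The COL4A1-COL4A2 stretch held 1 CCAAT box and 1 GC box, and 80.2% of its bases were G or C. In windows of 126 bases before all 35116 RefSeq start sites, 21.1% held a CCAAT box and 34.6% a GC box. The COL6A2 stretch held 4 GC boxes and a TATA box, COL5A3 held 1 CCAAT box and 1 GC box, and none of these letters were found in the COL6A3 window. In windows of 250 bases, 32.0% of all start sites had a CCAAT box, 42.6% a GC box and 10.7% a TATA box. None of the searched motifs overlapped another in the 4 stretches, and a match describes letters only.

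Of the 44 collagen genes, 31 passed the filter on low counts and were tested with all other genes. In 27 of them, all 3 libraries of both genotypes were above the filter's minimum of 0.574 CPM. COL2A1, COL24A1, COL4A4 and COL4A6 passed with fewer libraries above it. The 13 untested genes had at most 29 counts in any library. COL6A5 and COL6A6 had 0 counts in all 6, where 3 counts, the limit that a count of 0 allows, correspond to 0.159 to 0.176 CPM (counting error only). The others were COL9A1, COL10A1, COL11A1, COL14A1, COL20A1, COL21A1, COL23A1, COL25A1, COL26A1, COL28A1 and COL4A3.

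At an adjusted p under 0.05 (edgeR), 13 collagen genes fell and 4 rose in knockout cells, and 14 were not called. The called share was 54.8% of the 31 tested, beside 41.2% of all 16046 genes tested. Split by direction, 41.9% of the tested collagen genes were lower, beside 20.7% of all genes, and 12.9% were higher, beside 20.5% of all genes. The median log2 fold change was -0.36 over the collagen genes and -0.004 over all genes. Knockout and wild-type libraries did not overlap in 20 of the 31, beside 51.1% of all genes. A test against a change of 1.5-fold was passed by COL5A3, which rose, and by COL9A3, COL8A1 and COL13A1, which fell. That test was passed by 3.58% of all genes. Without wild-type replicate 1, the counts of collagen genes called were again 13 lower and 4 higher. In bulk RNA, less RNA per cell and fewer cells expressing a gene cannot be told apart.

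**Figure D1:**
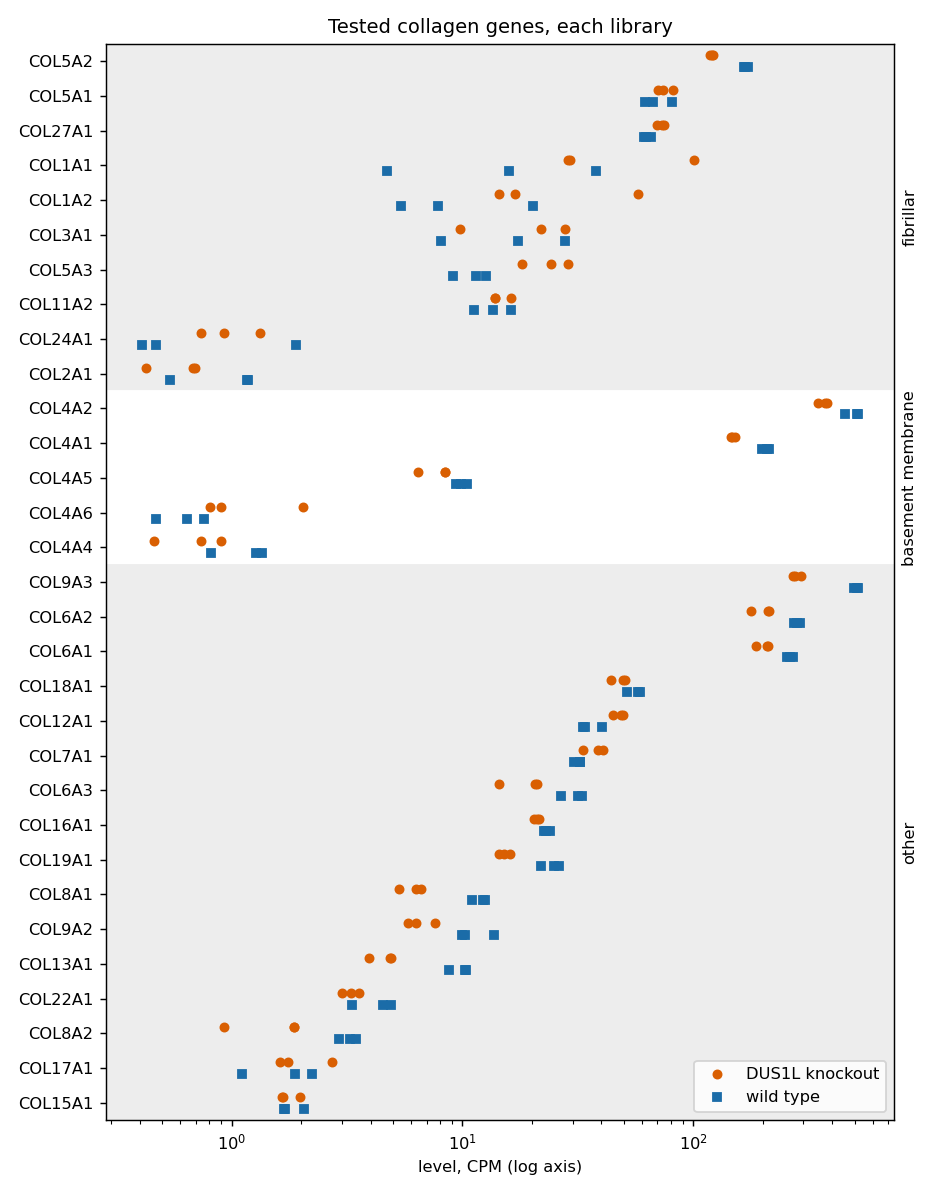
Level of each of the 31 tested collagen genes in every library, in CPM on a log axis, with knockout libraries as circles above wild-type libraries as squares, grouped by class. COL9A3, COL6A1, COL6A2, COL4A1 and COL4A2 lie at the high end with the knockout libraries below the wild-type ones, and the 3 libraries of each genotype spread widely for COL1A1, COL1A2 and COL3A1.

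Per kilobase of merged exons, which allows levels of different genes to be set side by side, the same 6 genes led in the same order in both genotypes. COL9A3 was at 57.7 ± 2.4 CPM per kb in knockout and 105.3 ± 2.2 CPM per kb in wild-type cells (SD, n = 3 each). COL6A2 followed at 37.6 ± 3.7 and 52.6 ± 1.5, and COL6A1 at 36.6 ± 2.4 and 47.6 ± 1.4, so that in knockout cells this pair differed by less than its spread. COL4A2 was at 19.04 ± 0.92 CPM per kb in knockout and 25.7 ± 1.8 in wild-type cells, COL5A2 at 16.4 ± 0.2 and 23.0 ± 0.5, and COL4A1 at 10.1 ± 0.2 and 14.1 ± 0.5. The length is that of all annotated exons merged, and the transcripts used by A375 cells may be shorter. All 6 fell, and together they made up 71.9% of summed collagen CPM in knockout cells and 80.5% in wild-type cells. Summed over the 44 genes, the level was 1872, 1814 and 1818 CPM in knockout libraries, against 2304, 2389 and 2480 CPM in wild-type libraries. The groups did not overlap, and the knockout mean was 76.8% of the wild-type mean.

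Fibrillar genes moved in both directions. Of 11 genes, 10 were tested, 2 rose, 1 fell and 7 were not called, with a median log2 fold change of 0.14. Of those tested, 20% were higher and 10% lower, beside 20.5% and 20.7% of all genes. The called share was thus no larger than that of all genes. COL5A2, which encodes a chain of the type V collagen that starts fibril assembly, was at 120.4, 118.3 and 121.4 CPM in knockout libraries, against 165.1, 168.0 and 172.3 CPM in wild-type libraries. Its groups were narrow and well apart (log2 fold change -0.49, SE 0.05, adjusted p = 3.00e-07, edgeR). COL5A3, a less widely used type V chain, was at 28.7, 18.0 and 24.3 CPM in knockout libraries and at 9.11, 11.4 and 12.6 CPM in wild-type libraries. Every knockout library was above every wild-type library, and the gene rose by 1.10 on the log2 scale (SE 0.17, adjusted p = 0.000161, edgeR; adjusted p = 0.0300 against 1.5-fold). COL5A1, whose chain pairs with that of COL5A2, was at 81.3, 70.7 and 73.7 CPM in knockout and 61.6, 66.8 and 80.8 CPM in wild-type libraries, so its groups overlapped (log2 fold change 0.11, SE 0.09, adjusted p = 0.350, edgeR). Without wild-type replicate 3 COL5A1 was called higher (log2 fold change 0.23, adjusted p = 0.0287). The 3 genes of type V collagen thus gave 1 fall, 1 rise and 1 gene without a call.

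COL27A1, a fibrillar gene best known from cartilage, rose by a small amount. It was at 73.3, 69.9 and 74.6 CPM in knockout libraries and at 61.3, 62.5 and 65.3 CPM in wild-type libraries, without overlap (log2 fold change 0.20, SE 0.06, adjusted p = 0.0130, edgeR). The call was lost after correction for GC content and transcript length (log2 fold change 0.12, adjusted p = 0.108), without knockout replicate 3 (adjusted p = 0.0638) and without wild-type replicate 2 (adjusted p = 0.0507). COL11A2, a type XI chain, was at 16.2, 13.9 and 13.9 CPM in knockout and 16.2, 13.5 and 11.2 CPM in wild-type libraries, which overlapped (log2 fold change 0.11, adjusted p = 0.554, edgeR). COL24A1 and COL2A1 were near 1 CPM, at 0.995 ± 0.304 and 0.598 ± 0.150 CPM in knockout cells and at 0.925 ± 0.843 and 0.960 ± 0.362 CPM in wild-type cells, and were not called (log2 fold changes 0.09 and -0.67).

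The type I genes differed more between libraries of one genotype than between genotypes. COL1A1, which encodes the chain present in 2 copies in type I collagen, was at 29.2, 100.8 and 28.5 CPM in knockout libraries and at 4.70, 15.9 and 37.7 CPM in wild-type libraries. COL1A2, its partner, was at 14.5, 57.9 and 16.8 CPM in knockout libraries and at 5.41, 7.80 and 20.2 CPM in wild-type libraries. For both genes knockout replicate 2 was the highest library and wild-type replicate 1 the lowest, and the groups overlapped. The highest wild-type library had 8.03 times the COL1A1 level of the lowest, and the highest knockout library 3.53 times that of the lowest. Neither gene was called by edgeR (log2 fold change 1.44, SE 0.95, adjusted p = 0.311 for COL1A1, and 1.41, SE 0.86, adjusted p = 0.276 for COL1A2). Limma-voom called both higher (adjusted p = 0.0338 and 0.0463). Without knockout replicate 2 the log2 fold changes were 0.57 and 0.49, and without wild-type replicate 1 they were 0.98 and 1.09. Neither gene passed the test with either library left out.

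COL3A1, which encodes the type III chain that often shares fibrils with type I collagen, did not follow the type I pair in knockout replicate 2. It was at 27.8, 9.77 and 21.9 CPM in knockout libraries, where replicate 2 was the lowest, and at 8.05, 17.3 and 27.7 CPM in wild-type libraries (log2 fold change 0.17, SE 0.62, adjusted p = 0.858, edgeR). In wild-type libraries the 3 genes had the same order, with replicate 1 lowest and replicate 3 highest. The within-genotype SD on the log2 scale exceeded that of 99.97% (COL1A1), 99.93% (COL1A2) and 99.90% (COL3A1) of tested genes averaging at least 5 CPM. For COL5A2 the same SD exceeded that of 1.66% of those genes. Summed fibroblast markers were at 19.9, 25.5 and 24.7 CPM in knockout libraries and at 32.2, 30.6 and 28.1 CPM in wild-type libraries, with knockout replicate 2 and wild-type replicate 1 the highest of their genotypes. The first of these libraries was the highest of its genotype for the type I genes and the second the lowest. The fibroblast marker FAP was at 3.51, 6.76 and 3.16 CPM in knockout libraries and at 5.41, 3.25 and 3.20 CPM in wild-type libraries. The other tested fibroblast markers did not peak in knockout replicate 2. Among knockout libraries PDGFRB, DCN and LUM were highest in replicate 3, at 7.22, 6.04 and 5.30 CPM, and PDGFRA in replicate 1, at 2.60 CPM. The part of fibroblast markers in the type I and III values was not tested.

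**Figure D2:**
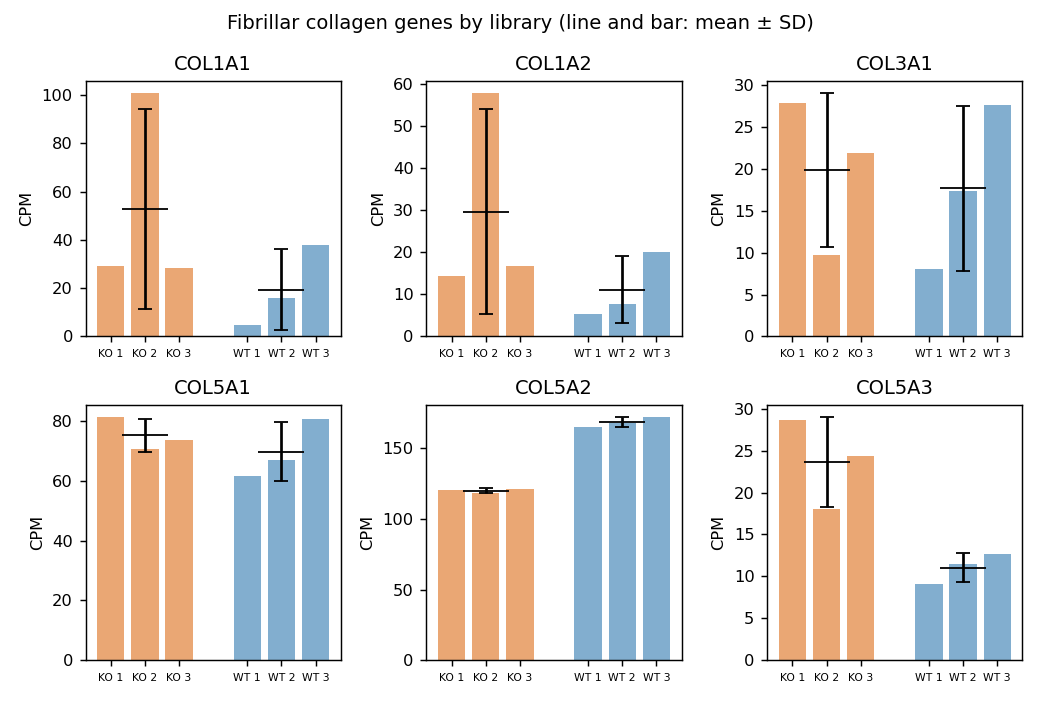
Level of 6 fibrillar collagen genes in each library, in CPM, with the knockout libraries on the left and the wild-type libraries on the right of each panel; lines and error bars are the mean ± SD of 3 libraries. COL5A2 and COL5A3 separate the genotypes, while COL1A1 and COL1A2 peak together in knockout replicate 2, where COL3A1 has its lowest knockout value.

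The 2 most abundant basement membrane genes fell. Of 6 type IV genes, 5 were tested, 2 fell, none rose and 3 were not called, with a median log2 fold change of -0.43. The called share of 40% was near the 41.2% of all genes, of which 20.7% were lower. COL4A1, a minus-strand gene (chromosome 13, 110148963 to 110307157), was at 147.7, 151.8 and 146.3 CPM in knockout libraries, against 199.4, 212.7 and 209.2 CPM in wild-type libraries. COL4A2, a plus-strand gene (110305812 to 110513209), was at 380.8, 346.8 and 372.9 CPM in knockout libraries, against 454.9, 513.6 and 515.2 CPM in wild-type libraries. These chains form the type IV network found in most basement membranes, and the stretch printed above lies between the RefSeq starts of their genes. In GENCODE the gene bodies overlap at their starts, with a distance of -1346 bases between them. Neither gene had overlapping groups, and they fell by 0.48 (SE 0.05, adjusted p = 3.66e-07) and by 0.43 (SE 0.06, adjusted p = 3.82e-06) on the log2 scale, in edgeR. The ratio of COL4A1 to COL4A2 counts was 0.388, 0.438 and 0.392 in knockout and 0.438, 0.414 and 0.406 in wild-type libraries. The mean log2 ratio differed by -0.05 between genotypes, with SDs of 0.10 in knockout and 0.06 in wild-type libraries, which was less than either SD (two-sided exact permutation test, p = 0.5).

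COL4A5 and COL4A6 also lie head to head, on the X chromosome, with 340 bases between them in GENCODE. COL4A5 was at 8.39, 6.41 and 8.40 CPM in knockout libraries and at 9.88, 10.5 and 9.42 CPM in wild-type libraries. Its groups did not overlap but it missed the threshold (log2 fold change -0.36, SE 0.15, adjusted p = 0.0551, edgeR), and it was called lower after correction for GC content and transcript length (adjusted p = 0.0210). COL4A6 was near the limit of detection, at 0.903, 0.809 and 2.03 CPM in knockout and 0.470, 0.759 and 0.640 CPM in wild-type libraries (log2 fold change 0.99, SE 0.46, adjusted p = 0.0904, edgeR). The ratio of COL4A5 to COL4A6 counts was 9.29, 7.93 and 4.14 in knockout and 21.0, 13.8 and 14.7 in wild-type libraries, without overlap. COL4A4, a chain of specialised basement membranes such as that of the kidney glomerulus, was at 0.700 ± 0.222 CPM in knockout and 1.15 ± 0.29 CPM in wild-type cells and missed the threshold (log2 fold change -0.70, adjusted p = 0.203).

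Type VI collagen forms beaded filaments near cell surfaces, and its 3 tested genes all fell, beside 20.7% of all genes tested. COL6A1 was at 209.2, 187.5 and 211.4 CPM in knockout libraries, against 263.7, 255.8 and 270.8 CPM in wild-type libraries. COL6A2, which lies next to COL6A1 on chromosome 21, was at 213.5, 178.0 and 210.7 CPM in knockout libraries, against 272.2, 280.3 and 288.7 CPM in wild-type libraries. COL6A3, on chromosome 2, encodes the longest of these chains and was at 20.9, 14.3 and 20.5 CPM in knockout libraries, against 32.9, 26.7 and 31.8 CPM in wild-type libraries. The groups did not overlap for any of the 3, and knockout replicate 2 was the lowest library each time. On the log2 scale COL6A1 fell by 0.38 (SE 0.06, adjusted p = 1.45e-05), COL6A2 fell by 0.48 (SE 0.06, adjusted p = 4.57e-06) and COL6A3 fell by 0.71 (SE 0.13, adjusted p = 0.000462), in edgeR. The ratio of COL6A1 to COL6A2 counts was 0.980, 1.05 and 1.00 in knockout and 0.969, 0.913 and 0.938 in wild-type libraries. The ratio of COL6A1 to COL6A3 counts was 9.99, 13.1 and 10.3 in knockout and 8.03, 9.57 and 8.51 in wild-type libraries.

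Ratios were compared for 6 pairs of chains in all. The ratio of COL5A1 to COL5A2 counts was 0.676, 0.597 and 0.607 in knockout libraries, against 0.373, 0.398 and 0.469 in wild-type libraries, and the mean log2 ratio was higher in knockout cells by 0.61. For this pair, COL4A5 to COL4A6 and both type VI pairs the groups did not overlap, which gave p = 0.1, the smallest value that 3 against 3 libraries allow in a two-sided exact permutation test (adjusted p = 0.15 over the 6 pairs). For COL1A1 to COL1A2 the ratio was 2.02, 1.74 and 1.70 in knockout and 0.870, 2.03 and 1.87 in wild-type libraries (exact permutation p = 0.9). The type I pair kept a ratio near that of the other libraries in knockout replicate 2, where both genes were highest, and departed from it in wild-type replicate 1. A count ratio follows a pair across libraries and is not a ratio of molecules, since the transcripts differ in length.

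**Figure D3:**
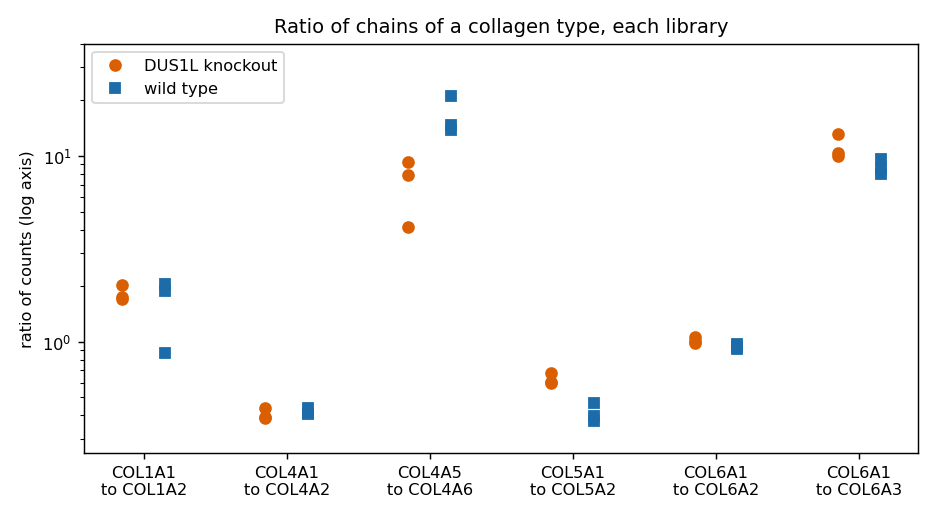
Ratio of the counts of 2 chain genes of a collagen type in each library, on a log axis, with knockout libraries left of wild-type libraries in each pair. The COL4A1 to COL4A2 ratio overlaps between genotypes, whereas the COL5A1 to COL5A2 and COL4A5 to COL4A6 ratios do not.

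Fibril-associated collagens sit on the surface of fibrils and link them to other matrix molecules. Of 10 genes of this kind, 6 were tested, 3 fell and 1 rose (50% and 16.7%, beside 20.7% and 20.5% of all genes). COL9A3, a type IX chain best known from cartilage, was at 292.6, 270.3 and 275.7 CPM in knockout libraries, against 519.8, 510.4 and 498.9 CPM in wild-type libraries. Its groups were far apart and its p was the smallest in the family (log2 fold change -0.87, SE 0.05, adjusted p = 5.74e-11, edgeR). COL9A2, another type IX chain, was at 5.79, 7.63 and 6.26 CPM in knockout libraries, against 13.7, 10.3 and 10.0 CPM in wild-type libraries, and fell by 0.79 (SE 0.16, adjusted p = 0.000436). The third type IX gene, COL9A1, was not tested, with 2, 2 and 4 counts in knockout and 1, 2 and 4 counts in wild-type libraries. COL19A1 was at 14.4, 15.1 and 16.1 CPM in knockout libraries, against 24.99, 21.95 and 26.2 CPM in wild-type libraries, and fell by 0.68 (SE 0.10, adjusted p = 2.38e-05).

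COL12A1 was the fibril-associated gene that rose. It was at 49.6, 48.7 and 44.8 CPM in knockout libraries, against 33.5, 33.9 and 40.4 CPM in wild-type libraries, without overlap (log2 fold change 0.41, SE 0.08, adjusted p = 0.000448, edgeR). COL16A1 was at 20.9, 21.4 and 20.4 CPM in knockout libraries and at 24.0, 22.5 and 22.9 CPM in wild-type libraries. These groups did not overlap, but the difference was small and no call was made (log2 fold change -0.15, SE 0.09, adjusted p = 0.218). COL22A1, found at tissue junctions, was at 3.28 ± 0.27 CPM in knockout and 4.24 ± 0.83 CPM in wild-type cells (log2 fold change -0.36, adjusted p = 0.196).

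Among the remaining types, COL8A1 and COL8A2, whose short chains form a network in vessel walls and in the cornea, both fell. COL8A1 was at 6.27, 6.65 and 5.30 CPM in knockout libraries, against 12.5, 11.003 and 12.3 CPM in wild-type libraries (log2 fold change -0.97, SE 0.14, adjusted p = 1.60e-05, edgeR). COL8A2 was at 1.86, 0.925 and 1.86 CPM in knockout libraries, against 3.47, 2.93 and 3.26 CPM in wild-type libraries (log2 fold change -1.05, SE 0.29, adjusted p = 0.00690). COL13A1, a transmembrane collagen of cell adhesion sites, had the lowest fold change of the family. It was at 3.93, 4.91 and 4.85 CPM in knockout libraries, against 10.2, 10.4 and 8.72 CPM in wild-type libraries, and fell by 1.10 (SE 0.16, adjusted p = 1.57e-05). No library of one genotype overlapped the other for these 3 genes. COL17A1, a transmembrane collagen of hemidesmosomes, was at 2.03 ± 0.60 CPM in knockout and 1.74 ± 0.57 CPM in wild-type cells and missed the threshold (log2 fold change 0.22, adjusted p = 0.627).

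COL7A1, which forms the anchoring fibrils below the epidermis, was at 40.8, 38.8 and 33.4 CPM in knockout libraries and at 32.3, 30.5 and 32.5 CPM in wild-type libraries. The rise was small (log2 fold change 0.25, SE 0.08, adjusted p = 0.0239, edgeR). Correcting for GC content and transcript length ended the call (adjusted p = 0.0777), and so did leaving out knockout replicate 1 (0.146), knockout replicate 2 (0.0813) or wild-type replicate 2 (0.0989). COL18A1, the source of the endostatin fragment, was at 50.4, 44.03 and 49.8 CPM in knockout libraries and at 51.4, 59.0 and 57.5 CPM in wild-type libraries (log2 fold change -0.22, SE 0.08, adjusted p = 0.0254). Scaling by plain library size ended this call (adjusted p = 0.0769), as did leaving out knockout replicate 2 (0.132), wild-type replicate 2 (0.114) or wild-type replicate 3 (0.0812). COL18A1 shares 18.5% of its exon bases with SLC19A1 on the opposite strand. Because the strand setting of the counting was not given in the sources used here, reads of that pair on the shared bases cannot be told apart. COL15A1, of the same subfamily, was at 1.77 ± 0.18 CPM in knockout and 1.82 ± 0.21 CPM in wild-type cells (log2 fold change -0.04, adjusted p = 0.925).

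**Figure D4:**
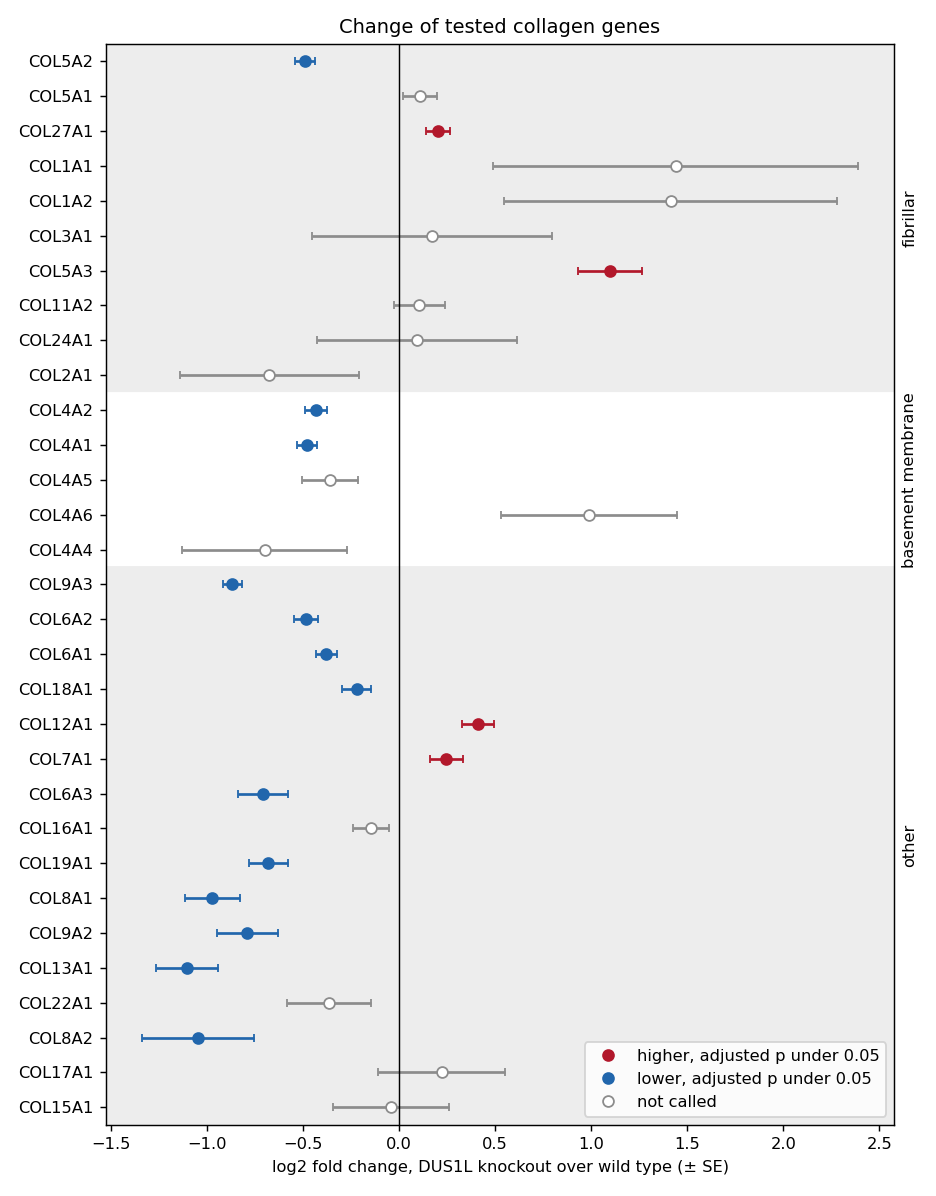
Log2 fold change of each tested collagen gene, knockout over wild type, with its SE, grouped by class; filled points passed an adjusted p under 0.05 and open points did not. The filled points of the basement membrane class lie below 0, as do 10 of the 12 filled points of the other class. Of the 16 tested genes of the other class, 62.5% were lower and 12.5% higher, beside 20.7% and 20.5% of all genes. Fibrillar genes lie on both sides.

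Exon bases shared with a gene on the opposite strand were annotated for 9 of the 31 tested genes. For 6 of them the other gene was a long non-coding RNA with a mean of at most 3.33 counts. Apart from SLC19A1, the protein-coding partners were TCFL5, which shares 3.20% of the exon bases of COL9A3, and LMBRD1, which shares 0.771% of those of COL19A1. TCFL5 had a mean of 355.1 counts in knockout and 382.1 in wild-type libraries, against 5024 and 8946 for COL9A3. LMBRD1 had a mean of 249.0 counts in knockout and 257.3 in wild-type libraries, against 273.0 and 427.0 for COL19A1. COL18A1 and COL9A3 were the 2 collagen genes with fractional values in the deposited table. Neighbouring collagen genes did not always move alike. COL3A1 and COL5A2 lie tail to tail on chromosome 2 with 19151 bases between them, and COL5A2 fell while COL3A1 was not called.

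Enzymes and helpers that make collagen were then described from lists of pathway genes. Among 15 genes for prolyl and lysyl modification, 6 fell and 2 rose (median log2 fold change -0.10). These were 40% and 13.3%, beside 20.7% lower and 20.5% higher of all genes. PPIB and CRTAP, which act together in prolyl 3-hydroxylation, fell to 747.2 ± 27.9 and 177.1 ± 1.6 CPM in knockout cells, against 1051 ± 66 and 233.8 ± 10.1 CPM in wild-type cells (adjusted p = 3.37e-07 and 3.35e-06, edgeR). P4HB, the shared subunit of prolyl 4-hydroxylase and a disulfide isomerase, was at 907.2 ± 38.8 CPM in knockout and 1162 ± 57 CPM in wild-type cells (adjusted p = 1.27e-05), and P3H3 fell by 0.65 on the log2 scale. For folding and export, 6 of 11 genes rose and 1 fell (54.5% and 9.09%, beside 20.5% and 20.7% of all genes, median 0.24). SERPINH1, the collagen chaperone HSP47, was at 542.6, 506.7 and 498.1 CPM in knockout libraries, against 336.7, 355.6 and 373.0 CPM in wild-type libraries. It rose by 0.54 (SE 0.05, adjusted p = 9.46e-08), and so did FKBP14 and TMEM38B, by 0.49 and 0.41, while FKBP10, another collagen chaperone, fell by 0.37.

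No tested gene of propeptide cleavage and crosslinking rose, and 7 of 11 fell (63.6%, beside 20.7% of all genes, median log2 fold change -0.45). PCOLCE, which enhances cleavage of the C-terminal propeptide, was at 176.8, 151.5 and 165.2 CPM in knockout libraries, against 273.3, 266.9 and 259.1 CPM in wild-type libraries, and fell by 0.70 (SE 0.06, adjusted p = 8.85e-09, edgeR). The lysyl oxidase family genes LOXL2, LOXL3 and LOXL4 fell by 0.45, 0.55 and 0.81, with adjusted p = 1.84e-06, 3.74e-08 and 9.78e-06. Collagen receptors gave 6 lower genes of 8 tested and none higher (75% lower, beside 20.7% of all genes, median -0.50). ITGA1, the integrin subunit that binds type IV collagen, was at 80.7 ± 6.1 CPM in knockout and 121.0 ± 3.8 CPM in wild-type cells (adjusted p = 3.19e-07). ITGB1, its partner, was at 295.0 ± 6.2 and 376.1 ± 30.8 CPM, the receptor kinase gene DDR1 at 49.8 ± 1.3 and 74.1 ± 3.9 CPM, and the endocytic receptor gene MRC2 at 71.5 ± 1.5 and 110.4 ± 7.1 CPM, in knockout and in wild-type cells.

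Collagen-degrading enzymes and their inhibitors moved in both directions, with 6 lower and 3 higher of 12 tested (median log2 fold change -0.13). These were 50% and 25%, beside 20.7% lower and 20.5% higher of all genes. The membrane proteases MMP14 and MMP16 fell by 0.58 and 0.78, and MMP2, the type IV collagenase, fell by 0.25 (adjusted p = 1.68e-07, 1.47e-08 and 0.00386, edgeR). TIMP3, a matrix-bound inhibitor, was at 374.9 ± 32.5 CPM in knockout and 632.5 ± 39.9 CPM in wild-type cells (adjusted p = 2.69e-08). Of 15 basement membrane partners, 7 fell and 2 rose (46.7% and 13.3%, beside 20.7% and 20.5% of all genes, median -0.20). The laminin genes LAMB1 and LAMA4 and the linker gene NID1 fell by 0.63, 0.94 and 0.52 (adjusted p = 3.10e-09, 1.34e-08 and 7.08e-08). LAMB3, a chain of the laminin found below epithelia, rose to 83.6 ± 9.1 CPM in knockout cells, against 46.1 ± 2.3 CPM in wild-type cells (adjusted p = 3.27e-08).

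Of 12 fibril partners, 5 fell and 1 rose (41.7% and 8.33%, beside 20.7% and 20.5% of all genes, median log2 fold change -0.30). Fibronectin, FN1, was at 473.6 ± 20.5 CPM in knockout and 729.3 ± 65.5 CPM in wild-type cells, and the collagen-binding genes BGN and SPARC fell by 0.65 and 0.36 (adjusted p = 9.91e-08, 1.49e-07 and 1.28e-05, edgeR). TNC, a matrix glycoprotein gene, fell by 0.40 (adjusted p = 2.19e-06). THBS1 was the gene that rose, to 1124 ± 48 CPM in knockout cells, against 566.8 ± 120.8 CPM in wild-type cells. Its groups did not overlap (log2 fold change 0.99, adjusted p = 0.0127, edgeR). In the list for TGF-beta signalling, which is known to raise collagen transcription in fibroblasts, 5 of 12 genes rose and 1 fell (median 0.12). These were 41.7% and 8.33%, beside 20.5% higher and 20.7% lower of all genes. The feedback genes SKIL and SMAD7 rose by 0.63 and 0.51 (adjusted p = 1.45e-06 and 0.000776, edgeR), and the ligand gene TGFB1 fell by 0.52 (adjusted p = 5.77e-06). Between 50% and 75% of the tested genes were called in each of the 8 lists, beside 41.2% of all genes.

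**Figure D5:**
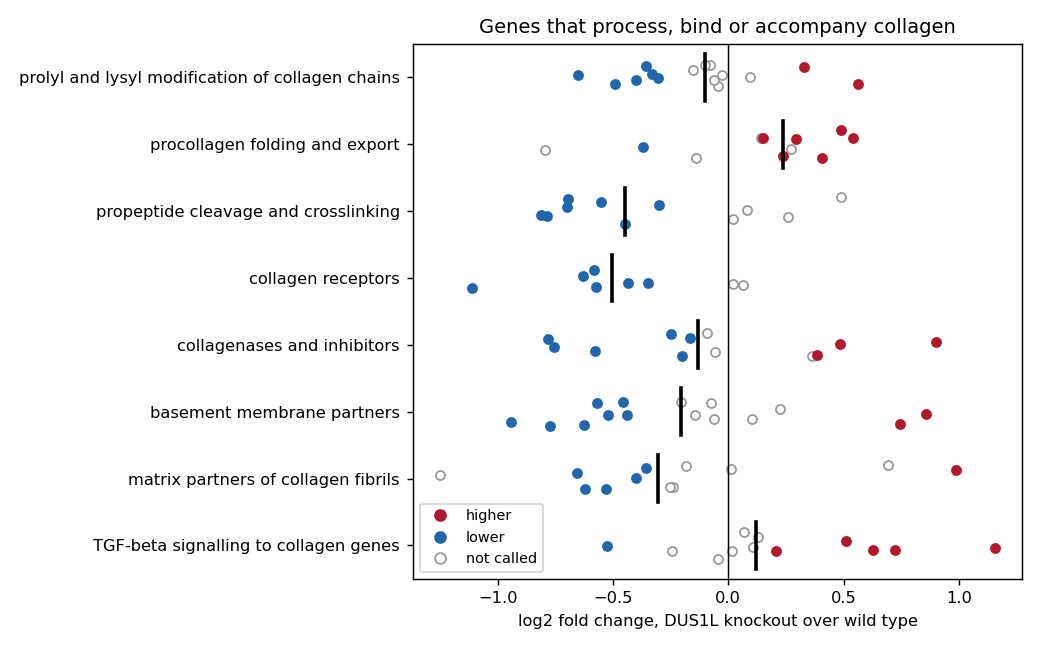
Log2 fold change, knockout over wild type, of the tested genes in 8 lists around collagen; filled points passed an adjusted p under 0.05, open points did not, and the vertical line is the list's median. Called genes of the cleavage and crosslinking list and of the receptor list all lie below 0, whereas 6 of the 7 called genes of folding and export lie above 0.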

How the data were processed

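RNA-seq was read for 3 DUS1L knockout and 3 wild-type A375 libraries. The deposited table holds estimated counts per gene, unscaled between libraries; per the submitters' processing notes, reads were placed on GRCh38 (hg38). The sources used here do not give the aligner, counting tool, strand setting or annotation. The collagen genes and the gene lists were chosen with earlier results of these data known.

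Gene identifiers were matched to GENCODE 44 (62541 of 63086). Counts were rounded and tested in R 4.3.3 with edgeR 4.0.16 (filterByExpr with a minimum count of 10, TMM scaling, robust quasi-likelihood fit on genotype, Benjamini-Hochberg adjustment over 16046 genes, threshold 0.05) and with glmTreat against 1.5-fold. Library totals of 17121307 to 18861493 put 3 counts at 0.159 to 0.176 CPM. Log2 ratios of chain counts were compared by exact permutation. Alternatives were limma-voom (limma 3.58.1), DESeq2 1.42.0, other scalings and filters, an offset for GC content and length, a replicate block and leaving out each library. The scripts were tested on simulated data. Every tested collagen gene is named, with all library values where a mean reached 5 CPM or a call was made, and up to 4 called genes of smallest p from each list; 1 such gene is not reported here. Nothing in the labels says that replicates came from separate clones, so p-values measure the spread between these libraries, which may be technical.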

Additional observations from a re-analysis of the deposited data

How the results depend on the processing

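Among collagen genes, 4 were called higher and 13 lower. With the offset for GC content and length, with or without the replicate block, 2 were higher (fibrillar 1, other 1), and against 1.5-fold 1 was higher and 3 lower. Limma-voom called 4 fibrillar genes higher, adding COL1A1 and COL1A2. Leaving out each library gave 2 to 5 higher and 12 to 13 lower (fibrillar higher 1 to 3, other higher 1 to 2). COL5A3, COL9A3, COL8A1 and COL13A1 were called in every fit run. The named pathway genes other than THBS1 kept their calls in every fit against no change. THBS1 was not followed across those fits. Summed collagen level, -0.38 on the log2 scale, was -0.337 with library size alone and -0.462 per kilobase. That scaling made 58.7% of all calls higher, the GC and length offset 43.8%, against 49.8%.

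Uncalled values that changed sign when a library was left out ranged from -0.016 to 0.244 for COL11A2, -0.26 to 1.17 for COL24A1, -0.17 to 0.64 for COL3A1, -0.133 to 0.0539 for COL15A1 and -0.0484 to 0.438 for COL17A1. COL15A1 was at 0.0023 with library size alone. The log2 ratio of COL1A1 to COL1A2 ranged from -0.10 (without wild-type replicate 1) to 0.51. The cause was not tested. Same-numbered libraries did not deviate together (correlations -0.041, -0.017 and 0.019), so no pairing by number was seen. With 3 libraries per genotype, a shared preparation could still have gone unseen. The replicate block gave 4 higher and 13 lower collagen genes, and 6241 of all genes called, against 6608. Depth limits the 13 untested genes and those near 1 CPM.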
